A study of Mus musculus with 16 samples.

Results

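The bone morphogenetic protein (BMP) pathway and its ID target genes were examined in the OCT4 binding map of mouse embryonic stem (ES) cells. The 10 genes were the ligand Bmp4, the receptor Bmpr1a, the signal-carrying SMADs Smad1 and Smad5, the inhibitory SMAD Smad6, the ID genes Id1, Id2, Id3 and Id4, and the phosphatase gene Dusp9. A peak was assigned to a gene when its midpoint lay in the gene body or no more than 50 kb from any annotated start of one of its transcripts. By this rule 31 of 26704 OCT4 peaks (0.116%) belonged to the 10 genes, which are 10 of 21938 protein-coding genes.

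The series consists of 16 ChIP-seq libraries in 8 groups of 2, with 4 libraries for OCT4, 4 for the chromatin remodeler subunit BRG1 and 8 for the histone mark H3K27ac. All OCT4 libraries came from 2TS22C cells, a mouse ES line whose Sox2 is expressed from a transgene under a doxycycline-repressible (Tet-Off) promoter. They were left untreated (SOX2 ON) or given 1 µg/ml doxycycline (SOX2 OFF), in both cases for 26 h, and all cells were kept in fetal bovine serum with leukemia inhibitory factor (LIF), the GSK3 inhibitor CHIR99021 and the MEK inhibitor PD184352. The OCT4 peaks used here are 1 merged list of coordinates, in which each peak is present or absent, with no replicate, height, read depth or treatment attached. BRG1, H3K27ac and the second line in the series, ZHBTc4, which was treated for 24 h, were not analysed here. Because ON and OFF cells cannot be told apart in the list, nothing below describes the response to SOX2 loss, and a site without a peak cannot be told from a site below the calling threshold. RNA was not part of the data, so marker expression could not be used to check the cell type. All 6 ES marker genes searched (Pou5f1, Nanog, Sox2, Zfp42, Tdgf1 and Sall4) had peaks, from 4 at Zfp42 to 9 at Sall4. By the same rule 73.0% of protein-coding genes had at least 1 peak. A peak is not expression, so these counts do not establish the cell type.

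BMP ligands bind paired type I and type II receptor kinases, which phosphorylate the receptor-regulated SMADs. These join SMAD4, enter the nucleus and switch on target genes, the best known of which are the ID genes. ID proteins lack a DNA-binding domain and hold basic helix-loop-helix factors inactive, and in mouse ES cells BMP with LIF is known to sustain self-renewal through them. OCT4 is a POU-family factor that binds an octamer, often next to SOX2 on a composite OCT4::SOX2 motif.

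The sequences below carry the composite, octamer, ESRRB, STAT and SMAD matches described later and some of the SOX cores, or show a near-gene peak without any. The KLF matches and the remaining SOX cores lie outside the stretches shown. They are from the RefSeq GRCm38 (mm10) assembly, plus strand, 5′ to 3′, and peaks are named by gene and numbered by rising coordinate. Each stretch is all or part of a peak, and capitals mark matches to 7 motifs searched on both strands. The composite was the SOX element CATTGTT directly followed by the octamer ATGCAAAT, 15 bases in all with at most 3 mismatches. The octamer alone was ATGCAAAT, so a composite match and an octamer match can overlap. The SOX core was CCATTGT or CCTTTGT, the ESRRB motif TCAAGGTCA, the KLF motif GGGTGTGG or GGGCGTGG, the STAT motif TTCCNGGAA and the GC-rich SMAD motif GGCGCC, all without mismatch. A match describes letters and is not evidence of a bound site. The first 3 stretches hold the composite matches, on the plus strand in Id3_1 and on the minus strand in Id3_3 and Bmpr1a_1.
Id3_1, chr4:136146881-136147180: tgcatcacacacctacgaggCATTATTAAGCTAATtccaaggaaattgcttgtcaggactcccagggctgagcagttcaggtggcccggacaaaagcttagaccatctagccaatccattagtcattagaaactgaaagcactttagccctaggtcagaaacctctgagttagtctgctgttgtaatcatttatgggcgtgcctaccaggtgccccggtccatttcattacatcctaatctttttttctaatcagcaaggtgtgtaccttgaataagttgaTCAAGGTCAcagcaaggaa
Id3_3, chr4:136181055-136181202: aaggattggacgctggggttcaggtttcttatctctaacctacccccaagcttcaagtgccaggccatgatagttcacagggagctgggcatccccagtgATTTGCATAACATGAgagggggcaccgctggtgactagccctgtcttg
Bmpr1a_1, chr14:34453860-34454159: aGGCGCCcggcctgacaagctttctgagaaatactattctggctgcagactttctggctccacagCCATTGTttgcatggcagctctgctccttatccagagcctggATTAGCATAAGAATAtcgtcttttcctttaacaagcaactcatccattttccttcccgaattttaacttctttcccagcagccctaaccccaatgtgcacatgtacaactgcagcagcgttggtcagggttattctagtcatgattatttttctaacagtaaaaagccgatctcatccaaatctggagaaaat

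The next stretches hold the ESRRB matches outside Id3_1. ESRRB is an orphan nuclear receptor of the ES cell network.
Id1_3, chr2:152772345-152772494: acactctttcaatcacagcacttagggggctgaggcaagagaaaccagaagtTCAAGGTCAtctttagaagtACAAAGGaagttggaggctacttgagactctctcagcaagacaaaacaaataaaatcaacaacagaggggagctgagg
Id4_1, chr13:48245554-48245813: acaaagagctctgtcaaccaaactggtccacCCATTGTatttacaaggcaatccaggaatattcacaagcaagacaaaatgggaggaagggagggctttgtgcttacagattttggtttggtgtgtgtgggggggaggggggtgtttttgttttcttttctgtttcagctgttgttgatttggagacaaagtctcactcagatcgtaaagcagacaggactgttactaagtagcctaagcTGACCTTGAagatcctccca
Dusp9_1, chrX:73644972-73645271: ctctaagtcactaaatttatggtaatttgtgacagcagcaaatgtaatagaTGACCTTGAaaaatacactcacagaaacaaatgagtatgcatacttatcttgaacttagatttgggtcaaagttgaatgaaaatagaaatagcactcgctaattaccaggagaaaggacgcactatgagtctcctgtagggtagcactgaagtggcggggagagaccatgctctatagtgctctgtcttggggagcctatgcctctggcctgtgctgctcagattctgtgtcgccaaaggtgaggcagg

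The STAT and SMAD matches outside Bmpr1a_1 lie in these stretches, named for the factors that act downstream of LIF and of BMP.
Id4_2, chr13:48252565-48252697: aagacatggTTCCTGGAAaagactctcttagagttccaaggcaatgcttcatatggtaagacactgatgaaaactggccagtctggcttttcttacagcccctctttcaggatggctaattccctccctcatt
Bmp4_1, chr14:46338922-46339071: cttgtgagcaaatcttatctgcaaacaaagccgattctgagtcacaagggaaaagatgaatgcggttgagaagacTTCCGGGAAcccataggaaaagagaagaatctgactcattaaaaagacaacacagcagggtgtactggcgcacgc
Id2_2, chr12:25093051-25093333: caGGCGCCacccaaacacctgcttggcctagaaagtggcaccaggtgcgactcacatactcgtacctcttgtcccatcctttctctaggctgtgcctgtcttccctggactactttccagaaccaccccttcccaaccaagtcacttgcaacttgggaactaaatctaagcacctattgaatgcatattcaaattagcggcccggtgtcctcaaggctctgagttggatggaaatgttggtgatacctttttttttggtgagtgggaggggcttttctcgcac
Smad6_3, chr9:64050063-64050362: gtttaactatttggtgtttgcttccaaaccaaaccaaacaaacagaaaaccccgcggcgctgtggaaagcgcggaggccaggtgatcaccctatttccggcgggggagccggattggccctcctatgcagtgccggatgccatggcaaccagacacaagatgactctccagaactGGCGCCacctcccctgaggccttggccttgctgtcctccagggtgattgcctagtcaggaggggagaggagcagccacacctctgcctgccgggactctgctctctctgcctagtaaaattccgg

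The last set shows the peak closest to the Bmp4 start, which has a pair of SOX cores, and the nearest peaks of Id1 and Smad1, which have no match to any of the 7 motifs.
Bmp4_3, chr14:46391758-46392011: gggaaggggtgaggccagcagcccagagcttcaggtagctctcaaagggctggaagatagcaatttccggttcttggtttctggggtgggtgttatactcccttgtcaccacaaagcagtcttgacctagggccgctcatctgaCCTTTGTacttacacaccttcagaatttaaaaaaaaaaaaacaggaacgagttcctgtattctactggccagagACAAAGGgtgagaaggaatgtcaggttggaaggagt
Id1_2, chr2:152739563-152739808: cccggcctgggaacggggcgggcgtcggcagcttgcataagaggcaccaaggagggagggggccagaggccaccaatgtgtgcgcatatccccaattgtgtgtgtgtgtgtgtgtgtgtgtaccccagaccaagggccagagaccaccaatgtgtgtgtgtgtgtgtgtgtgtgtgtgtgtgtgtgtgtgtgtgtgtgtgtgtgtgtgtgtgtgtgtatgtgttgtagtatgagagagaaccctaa
Smad1_1, chr8:79357480-79357629: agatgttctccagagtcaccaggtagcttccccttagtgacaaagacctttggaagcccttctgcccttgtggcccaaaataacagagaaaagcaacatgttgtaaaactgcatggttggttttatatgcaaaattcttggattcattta

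OCT4 peaks were assigned to all 10 genes, against 73.0% of protein-coding genes with at least 1 peak by the same rule. Bmp4 had the most with 6 peaks, followed by Id2 with 5 and Id4 with 4. Id1, Id3, Bmpr1a and Smad6 had 3 each, Smad5 had 2, and Smad1 and Dusp9 had 1 each. The median was 3 peaks per gene against 2 over all protein-coding genes, and the mean was 3.1 against 1.98. In all, 7 of the 10 genes had at least 3 peaks, compared with 31.1% of protein-coding genes and 34.8% of 46 other BMP genes. The 46 include the 3 E protein genes Tcf3, Tcf4 and Tcf12, whose products ID proteins bind. The 10 genes were chosen with earlier results of these data known, so their excess over all genes is described and was not tested. The count at Bmp4 was above that of 94.3% of protein-coding genes, at Id2 above 89.6%, at Id4 above 81.8%, and at the genes with 3 peaks above 68.9%. Smad5, with a count above 49.8% of genes, sat in the middle of the distribution. Smad1 and Dusp9 exceeded only the genes without a peak. Neighbouring counts in this order differ by 1 or 0 peaks and no replicate spread exists to separate them.

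**Figure D1:**
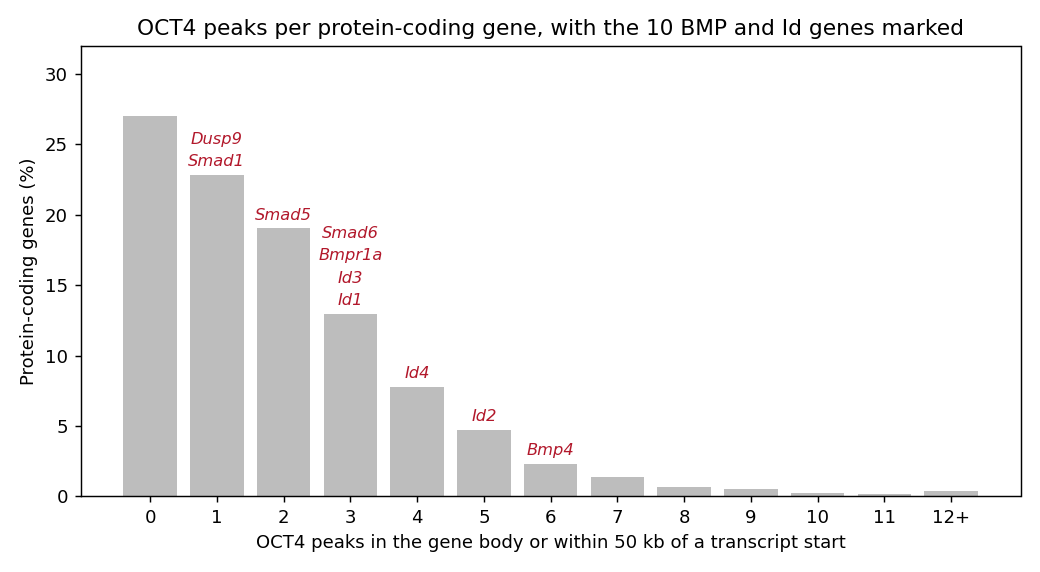
Percentage of protein-coding genes (bars, y axis) with each number of OCT4 peaks by the assignment rule (x axis, genes with 12 or more joined). Gene names in red stand above the bar of their own count, from 1 peak at Smad1 and Dusp9 to 6 at Bmp4, and none of the 10 is in the bar at 0.

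The counts were also set against the length searched. The windows of the 10 genes had a median of 102 kb (100 to 149 kb), close to the 104 kb over all genes, and the longest window, at Smad1, held a single peak. Per 100 kb of window there were 5.80 peaks at Bmp4, 4.95 at Id2, 4.00 at Id4, 3.00 at Id1, 2.96 at Id3, 2.52 at Smad6, 2.10 at Bmpr1a, 1.54 at Smad5, 1.00 at Dusp9 and 0.669 at Smad1. The median of these was 2.74 against 1.00 over all protein-coding genes and 1.26 over the 46 other BMP genes. The same limit from the choice of the 10 genes applies here. Summed over 1.15 Mb, the windows of the 10 genes held 2.70 peaks per 100 kb. The union of all gene windows held 1.29 peaks per 100 kb and the chromosomes as a whole 0.980 per 100 kb.

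Bmp4 encodes the BMP ligand that ES cells themselves make. Its peaks lay on both sides of the gene on chromosome 14. Bmp4_3 (46391758 to 46392011, 254 bp) was 1.22 kb upstream of the most upstream transcript start, and Bmp4_4 (46398288 to 46398675, 388 bp) was 7.81 kb upstream. Farther upstream lay Bmp4_5 (46412546 to 46413051, 506 bp) at 22.1 kb and Bmp4_6 (46419455 to 46419672, 218 bp) at 28.9 kb. These 4 upstream peaks were intergenic. Bmp4_2 (46385761 to 46386148, 388 bp) fell in a coding exon of Bmp4, 4.72 kb downstream of the start, and was the only peak of the 31 in coding sequence. Bmp4_2, Bmp4_3 and Bmp4_4 spanned 12.5 kb around the gene. For all 5 peaks so far Bmp4 was the nearest protein-coding gene. The sixth, Bmp4_1 (46338790 to 46339205, 416 bp), was intergenic, 48.3 kb downstream of an internal Bmp4 start and nearer to the predicted gene Gm15217. Bmp4_3 held a pair of SOX cores, Bmp4_5 held 1 SOX core and Bmp4_1 a STAT match, while the other 3 held none of the 7 motifs.

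Bmpr1a encodes a type I BMP receptor. Bmpr1a_1 (chromosome 14, 34453850 to 34454270, 421 bp) lay in an intron of the gene, 49.3 kb downstream of the most upstream start and 6.50 kb downstream of an internal start. It held 3 of the 7 motifs, namely a composite match with 3 mismatches, a SOX core and a SMAD match, and it had the lowest GC content of the 31 peaks (42.8%). The composite match, on the minus strand, was centred 86 bp from the peak midpoint. Bmpr1a_2 (34540930 to 34541183, 254 bp) and Bmpr1a_3 (34548360 to 34548839, 480 bp) lay 37.7 and 45.3 kb upstream, in introns of Ldb3, and 9230112D13Rik had the nearer start. Neither held any of the motifs.

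Smad1 and Smad5 encode receptor-regulated SMADs, which carry the BMP signal into the nucleus. They had few peaks. Smad1_1 (chromosome 8, 79357402 to 79357709, 308 bp) was in an intron, 42.0 kb downstream of the most upstream start. It counted as promoter-proximal only because a Smad1 transcript annotated as a retained intron starts 0.877 kb from it. Smad5_1 (chromosome 13, 56682788 to 56683121, 334 bp) was intergenic, 20.1 kb upstream of Smad5. Smad5_2 (56780794 to 56781033, 240 bp) was 47.9 kb downstream of an internal Smad5 start, in an intron of Trpc7, and Gm45623 had the nearer start. Smad5 was the only gene of the 10 without a peak within 10 kb of a start. Smad5_2 held a SOX core, and the other 2 peaks held no motif.

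Smad6 encodes an inhibitory SMAD that limits BMP receptor signalling. Its 3 peaks were all upstream of the gene on chromosome 9, and Smad6 had the nearest start for each. Smad6_1 (64022450 to 64022892, 443 bp) was intergenic, 0.612 kb upstream of the start, and had the highest GC content of the 31 (61.4%). Smad6_2 (64043024 to 64043279, 256 bp) and Smad6_3 (64050063 to 64050444, 382 bp) lay 21.1 and 28.2 kb upstream, 7.10 kb apart, the latter in an intron of 1110036E04Rik. Smad6_3 held the SMAD match shown above, and the other 2 held no motif.

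The 4 ID genes had 15 of the 31 peaks, and each had at least 3. Id2 (chromosome 12) had a peak in its own 5′ region. Id2_3 (25096741 to 25096977, 237 bp) lay in the 5′ UTR, 0.281 kb downstream of the most upstream Id2 start and 767 and 772 bp upstream of the other 2 starts. Id2_2 (25093051 to 25093333, 283 bp) was just past the gene's 3′ end, 3.67 kb from Id2_3 between midpoints. Id2_4 (25124501 to 25124968, 468 bp) and Id2_5 (25144764 to 25145003, 240 bp) were intergenic, 27.6 and 47.7 kb upstream. Id2_1 (25068732 to 25069433) was the widest of the 31 peaks at 702 bp, lay 28.1 kb downstream of the Id2 start and was nearer to a start of Kidins220. It held a SOX core and Id2_2 the SMAD match. Id2 was the nearest protein-coding gene for 7 peaks of the whole list, 4 of them among those assigned to it.

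Id4 (chromosome 13) had no other protein-coding gene start in its window. Id4_1 (48245291 to 48245858, 568 bp) and Id4_2 (48252565 to 48252952, 388 bp) lay 15.7 and 8.47 kb upstream, in introns of the gene A330033J07Rik, and were 7.18 kb apart. Id4_3 (48272909 to 48273247, 339 bp) was 11.9 kb downstream of the Id4 start in an intron of A330048O09Rik. Id4_4 (48309996 to 48310295, 300 bp) was intergenic, 48.9 kb downstream. Id4_1 held 2 SOX cores, an ESRRB match and a KLF match, and Id4_2 held a STAT match. Counting peaks at any distance, Id4 had the nearest start for 12 peaks, more than 99.3% of protein-coding genes, and 4 of these were within the 50 kb rule.

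The window of Id1 (chromosome 2) held starts of 3 other protein-coding genes and that of Id3 (chromosome 4) held 1, and for each of them a single peak had the ID gene as its nearest gene. At Id1 this was Id1_2 (152739563 to 152739808, 246 bp), 3.43 kb downstream of the start. It held no motif, and 50.8% of its bases were repeat-masked. Id1_1 (152707664 to 152708146, 483 bp) was 28.3 kb upstream in the 3′ UTR of H13 and held a KLF match. Id1_3 (152772156 to 152772655, 500 bp) was 36.2 kb downstream, nearer to Cox4i2, with 67% of its bases repeat-masked, and it held 2 SOX cores, 2 KLF matches and an ESRRB match. At Id3 the near peak was Id3_1 (136146684 to 136147269, 586 bp), 3.48 kb downstream of the most upstream start and past the 3′ end of the gene. Id3_2 (136172338 to 136172642, 305 bp) and Id3_3 (136180868 to 136181202, 335 bp) lay 29.0 and 37.5 kb downstream of that start. Both sat at starts of E2f2, a cell cycle transcription factor gene, at 0.096 and 0.252 kb, so their assignment to Id3 rests on distance alone. Id3_1 and Id3_3 held composite matches, with 3 mismatches each, and Id3_3 had the only octamer match of the 31.

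Dusp9, on the X chromosome, encodes a phosphatase that dephosphorylates ERK and is known as a BMP-responsive gene in ES cells. Its single peak, Dusp9_1 (73644888 to 73645359, 472 bp), was intergenic, 5.70 kb downstream of the start and past the 3′ end of the gene. It held an ESRRB match. The window also contained starts of Pnck and Slc6a8, but Dusp9 was nearest. Of other phosphatase genes of the family, Dusp1 had 7 peaks, Dusp6 had 4, Dusp5 had 1 and Dusp4 had 0.

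**Figure D2:**
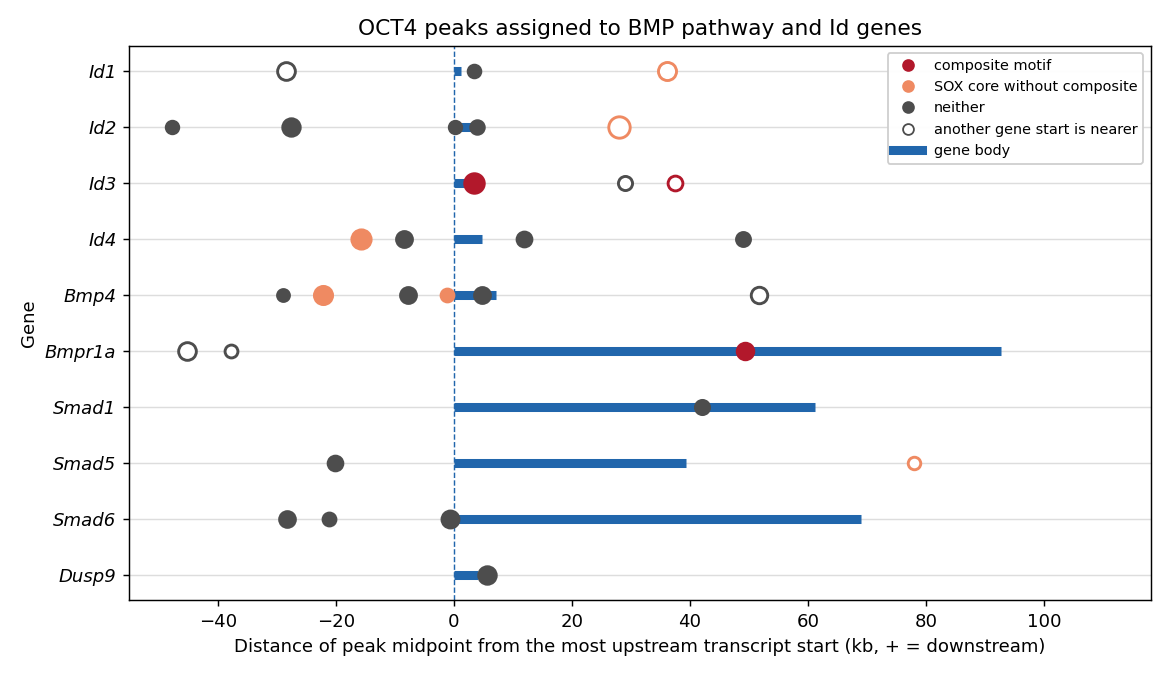
Position of the 31 OCT4 peaks (circles, area in proportion to width in bp) at each gene (rows) as distance in kb from the most upstream transcript start (dashed line, positive is downstream), with gene bodies in blue. Filled circles have the row's gene as the nearest protein-coding gene (22 peaks) and open circles have another (9 peaks), and red circles, at Id3 and Bmpr1a, hold the composite motif.

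The positions were then summarised over the 31 peaks. The peaks fell evenly around the most upstream starts, with 15 upstream and 16 downstream. The median distance to the nearest own start was 21.1 kb. A peak within 10 kb of a start was found at 9 of the 10 genes, with 12 peaks in all, against 38.5% of protein-coding genes. At Bmpr1a and Smad1 this rests on internal starts, as the peaks lay 49.3 and 42.0 kb downstream of the most upstream start. The limit from the choice of the 10 genes applies here too. Within 1 kb there was a peak at 3 genes (Id2, Smad1 and Smad6), against 16.5% of protein-coding genes, and the Smad1 one rests on the retained-intron transcript. By distance, 3 peaks lay within 1 kb, 5 at 1 to 5 kb, 4 at 5 to 10 kb, 5 at 10 to 25 kb and 14 at 25 to 50 kb. The mean per gene was 0.5 at 1 to 5 kb against 0.187 over protein-coding genes, 0.5 at 10 to 25 kb against 0.518, and 1.4 at 25 to 50 kb against 0.787. At 50 to 100 kb, outside the rule, it was 1.8 against 1.50. The assigned peaks nearest to the 50 kb limit were those at Id4 (48.9 kb), Bmp4 (48.3 kb) and Smad5 (47.9 kb), and the first ones beyond it were at Id3 (54.1 kb), Smad1 (54.6 kb) and Smad5 (54.7 kb).

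**Figure D3:**
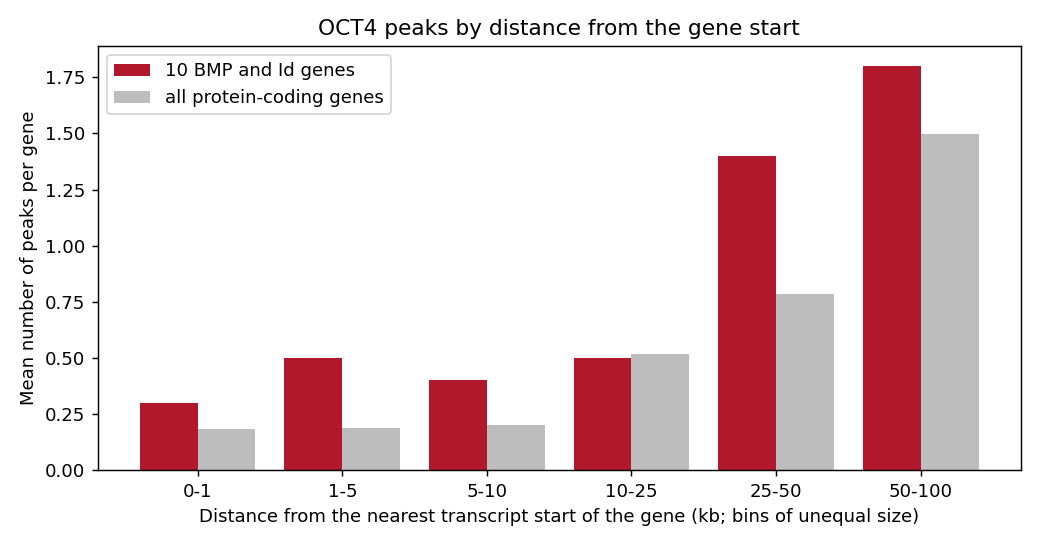
Mean number of OCT4 peaks per gene (y axis) by distance of the peak midpoint from the nearest start of that gene (x axis, bins of unequal size in kb), for the 10 BMP and Id genes (red) and all protein-coding genes (grey). The red bar is above the grey one in 5 of the 6 bins and below it at 10 to 25 kb.

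Promoters were considered next. Of the 31 peaks, 5 (16.1%, 95% Wilson interval 7.09 to 32.6%) were within 1 kb of a start of any protein-coding gene, against 13.8% of all peaks, and 2 of the 5 were the E2f2 peaks. Intervals here and below cover counting error alone. RefSeq promoter windows, 300 bases long and mostly upstream of a gene start, were available for 8 of the 10 genes (not Id1 and Dusp9) and numbered 10. A peak overlapped 0 of them, against 5.51% of all such windows, and 10 windows are too few to set 0 apart from that share. By annotation, 17 midpoints were intergenic (54.8%, against 46.1% of all peaks), 10 were in introns (32.3% against 45.5%), 2 in 5′ UTRs, 1 in a 3′ UTR and 1 in a coding exon. Inside the body of the gene they were assigned to lay 4 peaks, those being Id2_3, Bmp4_2, Bmpr1a_1 and Smad1_1.

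The nearest gene was then compared with the assigned one. For 22 of the 31 peaks (71.0%, 95% Wilson interval 53.4 to 83.9%) the assigned gene had the nearest protein-coding start, and for 9 it did not. These 9 were Id1_1, Id1_3, Id2_1, Id3_2, Id3_3, Bmp4_1, Bmpr1a_2, Bmpr1a_3 and Smad5_2. Each of the 10 genes was nearest to at least 1 peak of the whole list, against 47.7% of protein-coding genes, with a median of 1.5 such peaks against 0. Another OCT4 peak lay within 10 kb, between midpoints, of 15 of the 31 (48.4%), against 34.0% of all peaks.

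Peak width and base composition were near those of the whole list. The median width was 382 bp, with a range of 218 to 702 bp, against 352 bp over all peaks. The middle 50% spanned 269.5 to 470 bp, against 267 to 471 bp. At least 500 bp wide were 5 peaks (Id1_3, Id2_1, Id3_1, Id4_1 and Bmp4_5), against 20.8% of all peaks. Median GC content was 49.3% against 46.4%. More than 50% of the bases were repeat-masked in 2 peaks, both at Id1, against 15.6% of all peaks. Merging joins overlapping peaks, so a width is the extent of a union and not of binding in 1 library.

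Motif content was counted over whole peaks. The composite motif was in 3 of 31 peaks (9.68%, 95% Wilson interval 3.35 to 24.9%), against 11.5% of all peaks and 1.86% of flanking windows of the same width centred 5 kb to each side. None of the 3 had fewer than 3 mismatches. The octamer was in 1 peak (3.23%, 0.572 to 16.2%), against 11.0% of all peaks. A SOX core was in 7 peaks (22.6%, 11.4 to 39.8%), against 30.3% of all peaks. At least 1 of these 3 motifs was in 9 peaks (29.0%, 16.1 to 46.6%), against 43.7% of all peaks and 16.4% of flanking windows. All 4 intervals include the share over all peaks, so no difference from the list can be read from 31 peaks. The intervals treat peaks as independent, although peaks are not replicates, and are a description and not a test. The 9 peaks belonged to 7 genes, and no peak of Smad1, Smad6 or Dusp9 was among them. For Id1_3, Id2_1, Id3_3 and Smad5_2 another gene had the nearer start, and Id1, Id2 and Smad5 had no other peak among the 9.

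The ESRRB motif was in 4 peaks (12.9%, 95% Wilson interval 5.13 to 28.9%), at Id1, Id3, Id4 and Dusp9, against 3.08% of all peaks and 1.07% of flanking windows. Repeat-masked bases made up 67% of the Id1 peak, 0% of the Id3 peak, 23.2% of the Id4 peak and 24.2% of the Dusp9 peak. The Id1 peak was also nearer to Cox4i2. Whether the matches themselves lie in repeat-masked bases was not examined. The STAT motif was in 2 peaks (6.45%, 1.79 to 20.7%), Id4_2 with TTCCTGGAA and Bmp4_1 with TTCCGGGAA, against 1.73% of all peaks and 1.10% of flanking windows. The SMAD motif was in 3 peaks (9.68%, 3.35 to 24.9%), at Id2, Bmpr1a and Smad6, against 4.64% of all peaks and 1.52% of flanking windows. The KLF motif was in 3 peaks, at Id1 and Id4 (9.68%), against 9.19% of all peaks. The lower bound for ESRRB is above the share over all peaks, the bound for STAT is barely above it, and the SMAD and KLF intervals include it. These shares rest on 2 to 4 peaks each among 7 motifs searched and are a description and not a test. Of the 31 peaks, 16 held none of the 7 motifs. Apart from the composite, matches had to be exact, so a peak counted as having none can still hold near matches.

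**Figure D4:**
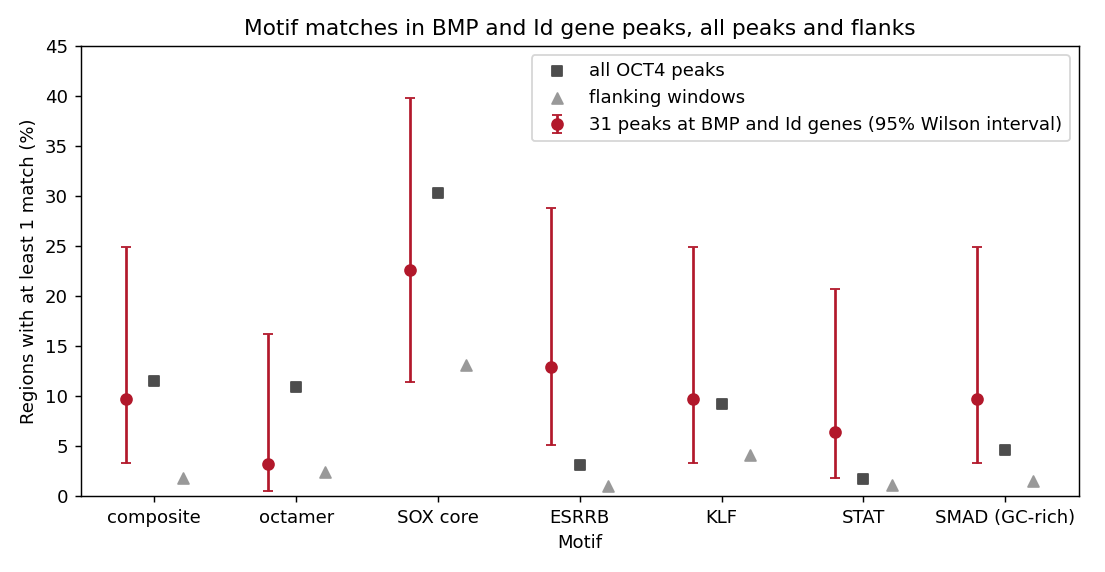
Percentage of regions with at least 1 match (y axis) to each motif (x axis) in the 31 peaks of the BMP and Id genes (red, bars are 95% Wilson intervals), in all 26704 peaks (squares) and in flanking windows (triangles). The red bar includes the square for the composite, octamer, SOX core, KLF and SMAD motifs and lies above it for ESRRB and STAT.

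The rest of the BMP pathway was counted by role with the same rule. Over all protein-coding genes, against which the counts of each role are to be read, 73.0% had a peak, 31.1% had at least 3 and the median was 2. Of 46 other BMP genes, the 3 E protein genes included, 39 had a peak (84.8%) and 16 had at least 3 (34.8%). Tcf4 and Tcf12 were among the 16. The median of 1.5 peaks per gene was below that over all genes. Per 100 kb of window the median of the 46 was 1.26 against 1.00. The group inside the cell that restrains SMAD signalling had a peak at 7 of 7 genes, and 6 had at least 3. These were the phosphatase gene Ppm1a with 4 and the inhibitory SMAD gene Smad7, the ubiquitin ligase gene Smurf1, the co-repressor genes Ski and Skil, and Tob1 with 3 each, while Smurf2 had 1. Per 100 kb of window this group had a median of 2.79 against 1.00 over all genes, from 0.522 at Smurf2 to 3.00 at Tob1. Smurf1, in a long window, had 1.67 per 100 kb. The other ligands had a median of 1 peak, with 4 peaks at Bmp6 and at Gdf3, and Bmp5, Bmp8b, Bmp15 and Gdf6 had none. All 8 other receptors and co-receptors had peaks, but their median of 1.5 was below the 2 over all genes, and 3 had at least 3. These were the co-receptor Rgma with 5, Acvr1 with 4 in a long window (1.75 per 100 kb) and Acvrl1 with 3. The remaining transducers Smad4 and Smad9 had 1 peak each.

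Among secreted or membrane antagonists, 9 of 10 had a peak, against 73.0% of protein-coding genes, but the median of 1 was below the 2 over all genes. The highest count was 4, at Twsg1, and Dand5 had none. Among other BMP-responsive genes, 6 of 7 had a peak, with 5 at Gata2, 4 at Msx2 and none at Atoh8. The E proteins, which ID proteins bind, had 7 peaks at Tcf4, 5 at Tcf12 and 0 at Tcf3. Tcf4 and Tcf12 are long genes, and per 100 kb of window they had 1.59 and 1.53 peaks.

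**Figure D5:**
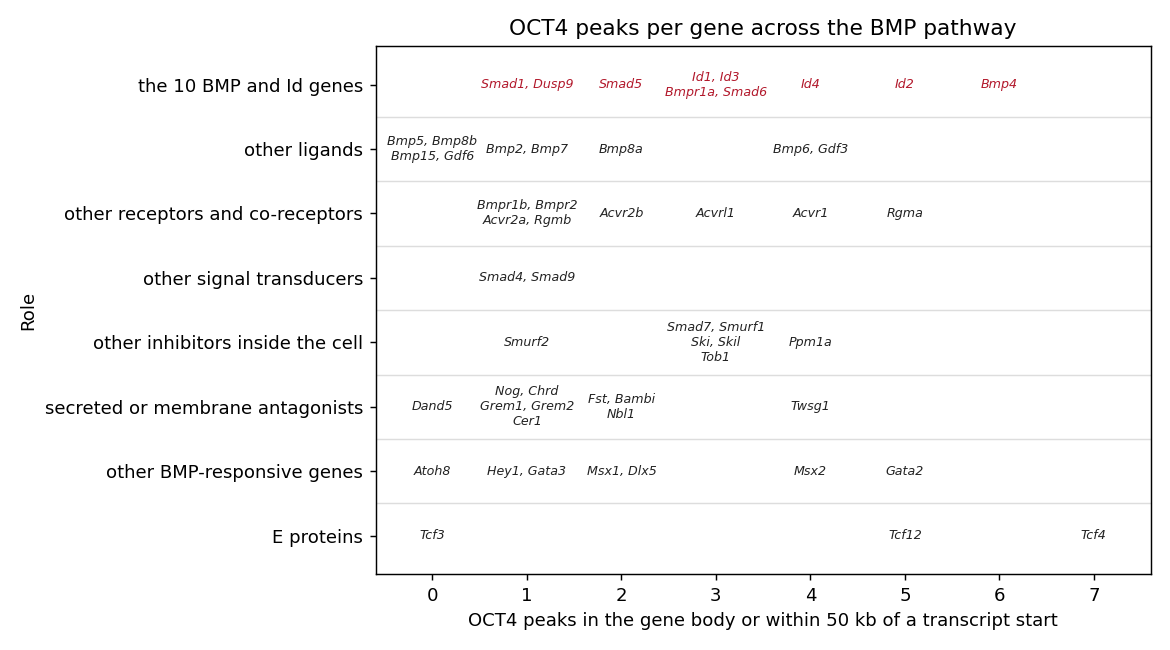
Gene names placed by number of OCT4 peaks under the assignment rule (x axis) and by role in the BMP pathway (rows), with the 10 BMP and Id genes in red. The inhibitors inside the cell lie at 3 or 4 peaks except Smurf2 at 1, and the antagonists lie at 0 to 2 except Twsg1 at 4.

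For comparison, 10 of 11 genes of the Nodal, Activin and TGF-beta arm had peaks, with a median of 3, and 7 of them had at least 3, against 73.0% and 31.1% of protein-coding genes. Nodal, Lefty1, Tdgf1 and Smad3 had 5 each, Lefty2 had 4, and Acvr1b and Tgfbr2 had 3. Lefty1 and Lefty2 lie in each other's windows, so a peak can count for both. The same holds for Acvr1b and Acvrl1, the latter counted above among the BMP receptors. All 10 genes of the LIF and STAT3 arm had peaks, also with a median of 3, and 7 had at least 3, against the same 73.0% and 31.1%. Lifr, Socs3 and Pim1 had 5, Il6st had 4, and Stat3, Tfcp2l1 and Gbx2 had 3. The 10 BMP and Id genes therefore had the same median as either arm, and the ES marker genes had a median of 5.5. Within the SMAD family, Smad3 had 5 peaks against 3 at Smad6 and Smad7, but per 100 kb of window these were 2.61 at Smad3, 2.52 at Smad6 and 2.79 at Smad7. Smad2 had 0.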

How the data were processed

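OCT4 ChIP-seq in 2TS22C cells was deposited by the authors as 1 merged list of chromosome, start and end per peak in base pairs, with no count, height or p-value. Per the study's methods and the submitters' processing notes, paired-end reads were aligned to mm10 with STAR 2.6.1c, duplicates were removed with Picard, and peaks were called with MACS2 2.1.1.20160309 and merged with BEDTools. Which of the 4 libraries were merged is not stated, so depth, replicate error and SOX2 OFF against ON could not be given.

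Midpoints were placed on GENCODE M21, and sequence was read from RefSeq GRCm38 (1-based coordinates). Intervals are 95% Wilson intervals. No test was run. The motif search was tested on motifs placed in random sequence, and the assignment window was checked on an invented gene. All 10 genes and all 31 peaks are named, and of other genes those with at least 3 peaks or counted in groups of 5 or fewer. The members and gene lists were chosen with earlier results of these data known. Alternatives changed distance, transcript set, width minimum, mismatches and central window. Python 3.11.15, NumPy 2.4.6, SciPy 1.17.1, pysam 0.24.0 and matplotlib 3.10.9 were used.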

Additional observations from a re-analysis of the deposited data

How the results depend on the processing

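Of 23 alternatives over 6 results, 19 left a count within 1.5 times, or a share or median within the 95% interval of the 31 peaks. That interval is wide, and within it the composite share moved from 9.68% to 22.6% at up to 4 mismatches (35.9% of all peaks), and the promoter-proximal share from 16.1% to 25.8%, both at 2.5 kb and at any annotated start. The number of assigned peaks followed the distance, with 12 peaks at 10 kb, 17 at 25 kb and 49 at 100 kb, by construction of the window. The composite motif fell to 0% at no more than 2 mismatches (2.21% of all peaks), as all 3 matches have 3. With coding transcripts alone 29 peaks remained assigned (Bmp4_1 and Smad5_2 dropped out), and 22 were at least 300 bp wide. All 10 genes had a peak under each alternative except 10 kb, where Smad5 had none. Leaving out gene bodies, an alternative chosen after seeing the data, left 31 peaks. No paired analysis was possible because the coordinates carry no library name, and leaving out each replicate was not run for the same reason. Depth is unknown.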
